A study of Bos taurus with 2 samples.

Results

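The proximal long arm of the cattle Y chromosome holds blocks of CpG-rich repeats set among sequence poorer in CpGs. Between 17.65 Mb and 24 Mb of chromosome Y in the ARS-UCD2.0 assembly, 371 of 1270 bins of 5 kb held at least 100 CpGs, and these CpG-dense bins are the subject here. They were chosen by their number of CpGs and by their position, and no methylation value entered the choice. Together they held 40958 of the 975164 CpGs measured on the chromosome, with a median of 106 and a range of 100 to 255 CpGs per bin. The whole chromosome gave 11882 bins with at least 5 CpGs used, and the other 899 bins of the same stretch serve as the closest comparison.

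CpG methylation was measured in lung DNA of a male fetus from a first-generation cross of a Wagyu sire and a Charolais dam, so the Y chromosome is a Wagyu haplotype. The same tissue was read on PacBio HiFi and on Oxford Nanopore Technologies (ONT), each with 1 library, and there was no treatment. No test across samples was possible, and an SD given below is the spread over bins or over repeat copies of 1 chromosome and not an error between animals. The study measured methylation to help define the centromere, and the stretch described here lies on its long-arm side.

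A CpG reads the same on both strands, and maintenance methylation in dividing cells copies the mark from the old strand to the new one, so that a CpG usually carries the same state on both strands. The Y chromosome escapes recombination with the X chromosome over most of its length, and its male-specific part accumulates repeats and amplified gene families, which are called ampliconic. One such family in cattle is TSPY, which encodes a testis-specific protein of germ cells, and others are PRAME, ZNF280A, ZNF280B and HSFY. Repeats of somatic tissues are commonly methylated, while the CpG islands at the starts of widely used genes are commonly not.

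The deposited PacBio data give 1 value per CpG, with the strands combined, and the count of covering reads. The median depth of the dense bins was 41 reads per CpG, as it was in the other bins of the stretch, and no CpG of the dense bins had fewer than 10 reads. Within the largest repeat family described below, 27 modified reads among 41, the median numbers, gave 65.9% with a 95% Wilson interval of 50.5% to 78.4%. That interval covers counting error only, which limits single CpGs far more than bin means. The ONT data give 1 percent value at each of the 2 bases of a CpG, here taken as its strands, with no strand column and no read count. The lower coordinate was assumed to be the plus strand, so the names plus and minus rest on that assumption. Without read counts the ONT depth is unknown and an ONT value of 0 cannot be told apart from a missing call. Reads of near-identical copies may also have been placed on another copy, so values of single copies are less certain than those of whole families, and the part of read placement in the results was not tested.

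The dense bins were sorted by the spacing of their CpGs, without use of any methylation value and without the sequence itself. A spacing word was defined as 6 consecutive distances between neighbouring CpGs, hence 7 CpGs, matched to the base pair and read in either direction. In the dense bins, 91.8% of CpGs lay in a word that occurred more than once on the chromosome, against 79.1% in the other bins of the stretch. Bins that shared at least 3 words were joined. The largest set held 295 bins and is called the larger family, the second held 68 bins and is called the TSPY unit family after its genes, the next held 4 bins, and 4 bins were joined to none. The 371 bins formed 134 blocks of adjacent bins, of which 69 were 1 bin long and 7 were at least 10 bins long.

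The families differed in layout. Within the TSPY unit family the same word recurred most often at a distance of 15699 bp, which held for 1535 of 7245 pairs of neighbouring copies, and the median distance was 15700 bp. This is the layout of a tandem array. In the larger family the commonest distance, 9386 bp, held for 139 of 14407 pairs, so no distance dominated. The median distance there was 14330 bp, and whether the copies form arrays of varying spacing was not tested. Its copies lay in both orientations. Reading the words forward or backward placed 234 bins in 1 orientation, called the majority, and 61 bins in the opposite orientation. None of the 26503 pairs of bins that shared words contradicted this assignment. Along the stretch the larger family formed 12 runs of bins of the same orientation, the longest of 105 bins.

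On PacBio the dense bins were methylated at an intermediate level with little variation. The mean over bins was 66.7% ± 5.98 (SD, n = 371 bins), with a median of 67.1%. The larger family had 67.6% ± 3.43 (SD, n = 295), from 56.7% to 77.7%. The TSPY unit family had 64.0% ± 5.33 (SD, n = 68), from 53.0% to 75%, so that the ranges of the families overlapped over most of their width. The set of 4 bins had 69.7% ± 4.10 (SD, n = 4). The narrow spread over bins did not hold for single CpGs. In the larger family 34.7% of CpGs lay above 80% and 1.69% below 20%, and the SD within a bin had a median of 19.5 points.

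The highest PacBio levels were 77.7% in the bin at 20460001-20465000, 77.1% at 22965001-22970000 and 76.2% at 22745001-22750000. All of these belong to the larger family, and they stood little above the rest. The lowest were 7.30% at 23330001-23335000, 7.86% at 23425001-23430000 and 53.0% at 18990001-18995000. The last belongs to the TSPY unit family and closes the main range, whereas the first pair stood far below every other dense bin.

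On ONT the same bins were lower, and the family means lay further apart than on PacBio. The ONT level, the mean of the strand values, was 44.9% ± 7.43 (SD, n = 371 bins), which is 21.8 points below PacBio. In the larger family the ONT level was 42.3% ± 4.06 (SD, n = 295) and the difference from PacBio -25.3 points ± 4.78. The TSPY unit family had 56.4% ± 3.86 (SD, n = 68) and a difference of -7.57 points ± 3.05. The ONT ranges overlapped, from 35.5% to 55.4% in the larger family and from 49.2% to 64.4% in the TSPY unit family, and 32 of the 68 TSPY unit bins lay at or below the highest bin of the larger family. The difference in the TSPY unit family was close to that of the 80 bins with at least 100 CpGs beyond 24 Mb, -8.74 points ± 3.94. The difference in the larger family was close to that of the 504 centromere bins, -25.1 points ± 2.88. An ONT level at least 20 points below PacBio was found in 253 of the 371 dense bins, where 10.4% of all bins of the chromosome and 474 of the 504 centromere bins met that mark. Of these 253 bins, 251 belonged to the larger family and none to the TSPY unit family.

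The distance between the platforms was divided unequally between the strands. In the dense bins the ONT row of the plus strand averaged 33.3% ± 21.5 and the row of the minus strand 56.5% ± 15.6 (SD, n = 371). The minus row exceeded the plus row by at least 20 points in 234 bins, where 5.87% of all bins of the chromosome did so. The plus row exceeded the minus row by at least 20 points in 55 bins, where 2.42% of all bins did so. These counts depended on the threshold, with 469 and 272 of 875 bins at 75 CpGs. At 150 CpGs they were 0 and 0 of 21 bins. Without regard to sign, the gap averaged 36.9 points over the dense bins, 45.3 points in the larger family and 2.32 points in the TSPY unit family. No bin of the TSPY unit family reached 20 points, and its largest gap was 10.9 points.

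**Figure D1:**
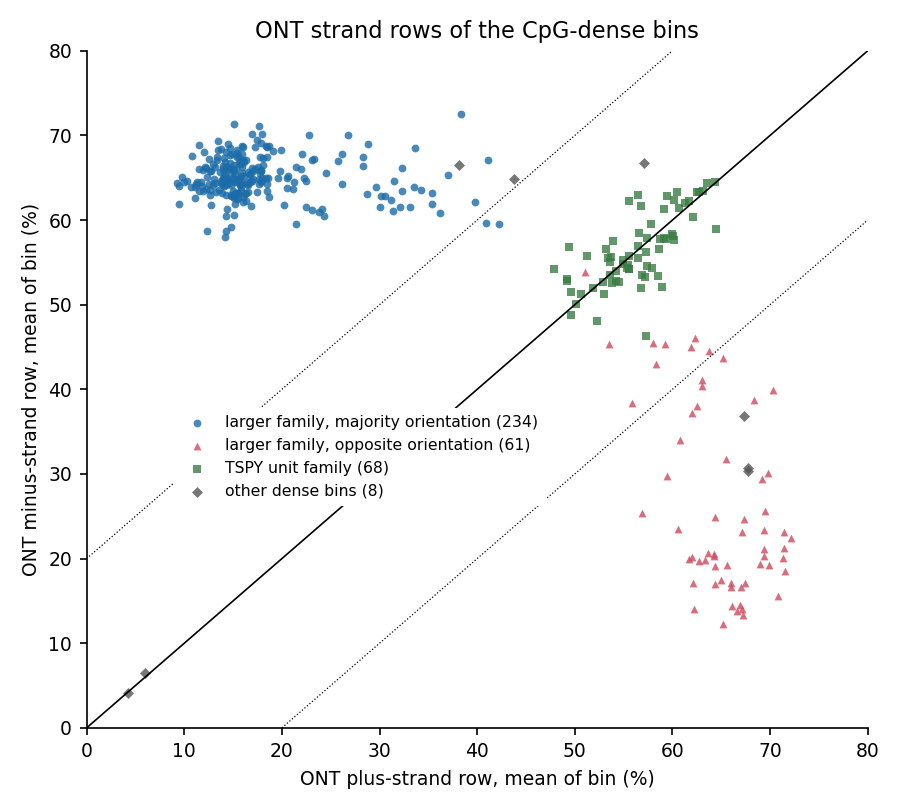
Each point is 1 CpG-dense bin, placed by the mean of its ONT plus-strand row (x axis, %) and of its ONT minus-strand row (y axis, %); colours and shapes give the family and the orientation read from CpG spacing, the solid line marks equal rows and the dotted lines a gap of 20 points. The 234 bins of the larger family in the majority orientation lie above the solid line, 60 of the 61 bins in the opposite orientation lie below it, and the 68 bins of the TSPY unit family lie along it.

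The sign of the gap followed the orientation of the repeat. Among the 234 majority bins of the larger family, 232 had a minus row at least 20 points above the plus row and none the reverse. Among the 61 opposite bins, 52 had a plus row at least 20 points above the minus row and none the reverse. The remaining 11 bins, 2 in the majority and 9 in the opposite orientation, had gaps under 20 points. Their strand rows after turning with the repeat averaged 44.5% and 58.4%, their median depth was 35 reads against 41 in the other 284, and 76.1% of their CpGs lay in words shared with another bin of the family against 84.6%. By position, 8 of the 11 lay at 20730001-20860000, among 12 bins of the family in 3 runs of alternating orientation, and the other 3, at 18100001-18105000 and 19670001-19680000, were the first or the second bin of an opposite run. The part of depth, sequence content and position in these smaller gaps was not tested. The gap had the sign of the orientation in 294 of the 295 bins, and the exception was the bin at 20730001-20735000, with a plus row of 51.0% and a minus row of 53.8%. Orientation came from CpG positions alone, so it is independent of the values compared here. The bins are copies of related sequence from 1 library and are not replicates.

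**Figure D2:**
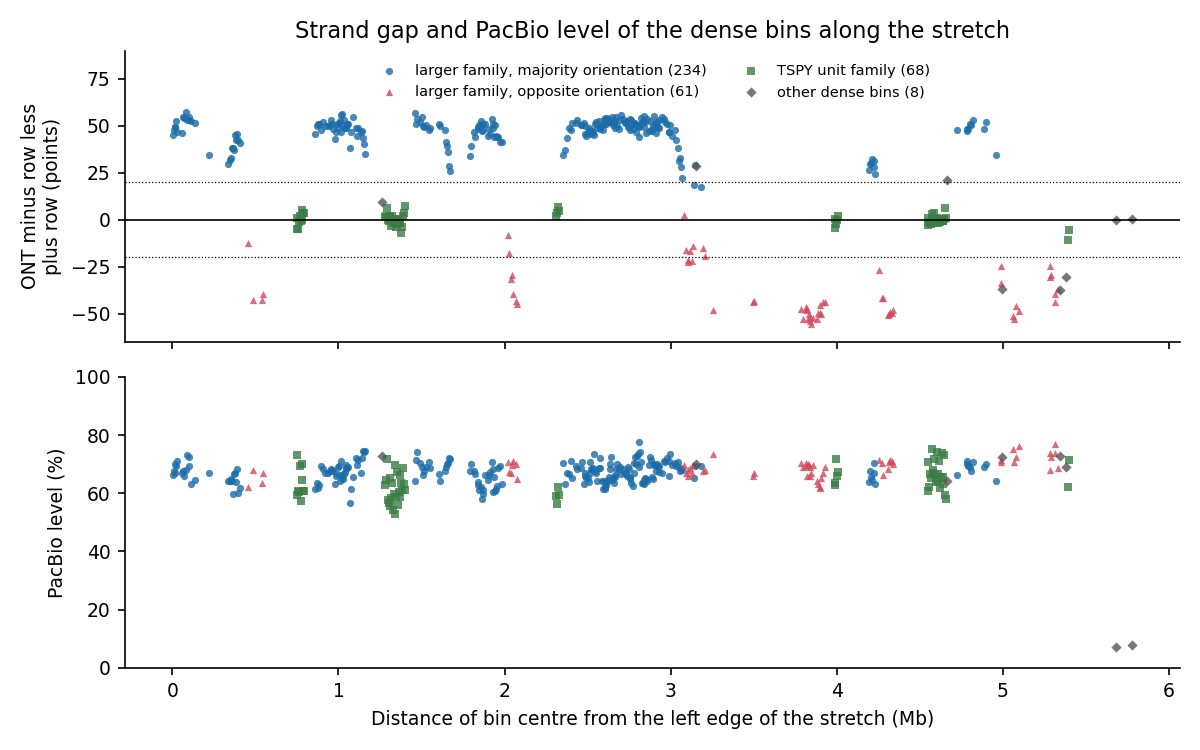
The upper panel shows the ONT minus row less the plus row (points) and the lower panel the PacBio level (%) of each dense bin against its distance from the left edge of the stretch (Mb), with dotted lines at gaps of 20 points in either direction. Majority bins lie above 0 (mean 47.1 points), 60 of the 61 opposite bins below it (mean -38.5 points, from -55.3 to 2.77) and TSPY unit bins within 10.9 points of it, while the PacBio level stays between 53.0% and 77.7% except in the 2 low bins near the right end.

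The largest gaps were similar in size in both orientations. With the minus row higher, they were 57.4 points at 17730001-17735000, 56.8 points at 19110001-19115000 and 56.2 points at 18670001-18675000. With the plus row higher, they were 55.3 points at 21495001-21500000, 53.9 points at 21485001-21490000 and 53.1 points at 21530001-21535000. In the first of these bins the plus row read 11.5%, the minus row 68.9% and PacBio 67.9%, and in the bin at 21495001-21500000 the rows read 70.8% and 15.6% with 66.9% on PacBio. In each case the higher ONT row was the one near the PacBio level.

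Turning the rows with the repeat gave each family a fixed pair of strands. Strand a is the plus row in majority bins and the minus row in opposite bins, and strand b is the other row. In the larger family strand a averaged 19.7% ± 8.44 and strand b 65.0% ± 3.01 (SD, n = 295). The difference from PacBio was -2.62 points for strand b and -47.9 points for strand a. In the TSPY unit family strand a averaged 56.1% ± 4.19 and strand b 56.7% ± 4.13 (SD, n = 68), without a comparable gap. Within the larger family strand a was higher in the 61 opposite bins, 26.4% ± 11.0, than in the 234 majority bins, 18.0% ± 6.62, with overlapping ranges of 12.3% to 53.8% and 9.24% to 42.2%. Strand b differed little between them, at 64.8% ± 4.55 and 65.0% ± 2.47.

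Single CpGs showed the same pattern in most places but not in all. Strand b was the higher row at 95.4% of the 31042 CpGs of the larger family and was higher by at least 20 points at 82.0%. Strand a was higher by that much at 0.664% of them. Values of strand a were spread unevenly, with 51.7% of CpGs under 10% and 21.0% at 40% or more. Exact zeros made up 24.9% of the strand a values and 0.0161% of the strand b values, and leaving out the zeros raised the CpG mean of strand a from 19.7% to 26.2%. The CpGs with strand a under 10% had a PacBio mean of 64.1%, and those with strand a at 40% or more had 74.0%. Zeros were rare in the TSPY unit family, where they made up 0.279% of strand a and 0.190% of strand b values.

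The ONT rows were also set against the PacBio level of the same CpG. In the larger family, CpGs at 80% to 100% on PacBio averaged 23.8% on strand a and 77.2% on strand b, and CpGs under 20% averaged 6.96% and 33.0%. In the TSPY unit family the corresponding means were 73.4% and 75.6% at the top and 21.9% and 20.6% at the bottom. Strand a of the larger family therefore averaged under 24% at every PacBio level, and strand b lay above both rows of the TSPY unit family in each step. Across CpGs of the larger family, Pearson's r with PacBio was 0.206 for strand a and 0.652 for strand b. For the TSPY unit family r was 0.760 and 0.776. These correlations run over CpGs of shared molecules and repeated sequence, and they are given as a description.

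**Figure D3:**
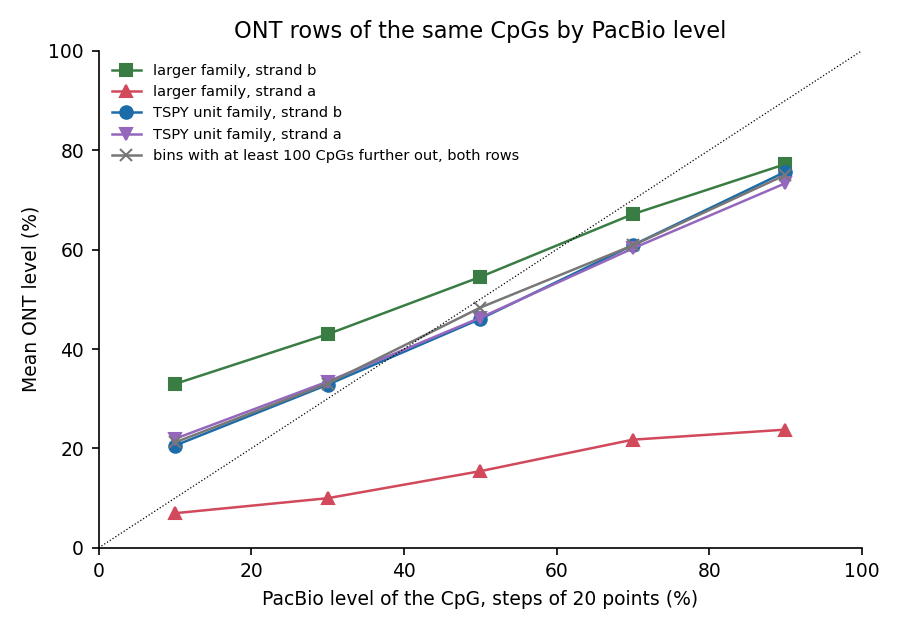
CpGs were grouped by PacBio level in steps of 20 points (x axis, %), and each point is the mean ONT level of a group (y axis, %), with the dotted line at equal values and the number of CpGs per point between 469 and 10857. In the larger family strand a rises from 6.96% to 23.8% while strand b rises from 33.0% to 77.2%, and both rows of the TSPY unit family follow the bins with at least 100 CpGs beyond 24 Mb.

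The spacing word with the most copies in the dense bins shows the pattern at base resolution. Its 7 CpGs stood 12, 3, 5, 10, 7 and 12 bp apart, read along the majority orientation, and spanned 50 bp. It occurred 136 times in dense bins of the larger family, 126 times in majority and 10 times in opposite bins, and in each copy the direction of the word matched the orientation of its bin. On PacBio the third CpG had the highest mean, 91.4% ± 3.07 (SD, n = 136 copies), and the seventh the lowest, 59.7% ± 12.6. On strand b all 7 CpGs averaged between 67.8% and 88.3%.

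On strand a the neighbours within this run differed. The first CpG was intermediate, at 44.8% ± 11.5 against 82.3% ± 7.56 on strand b. The second CpG averaged 74.0% ± 8.83, close to its 81.4% ± 7.94 on strand b. The third CpG, 3 bp further on, averaged 10% ± 10.5 against 88.3% ± 6.50 on strand b. The next ones averaged 3.93%, 5.49% and 3.14%, and the seventh rose to 59.9% ± 11.3. The second CpG had the higher value on strand b in 103 copies and the seventh in 96, whereas the other CpGs of the run had it in 136 of 136 copies. Mean strand a values of 10% or less were thus found at the third to sixth CpGs of this run.

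**Figure D4:**
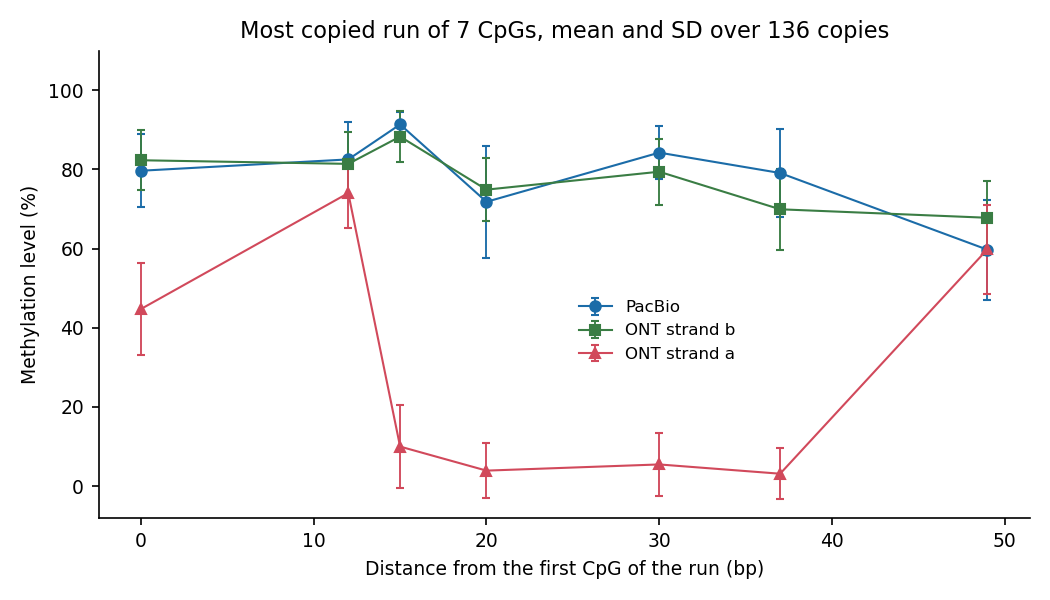
The 7 CpGs of the most copied spacing word are placed by their distance from the first (x axis, bp), with the mean and SD over 136 copies of the PacBio level and of ONT strands a and b (y axis, %). Strand a falls from 74.0% at the second CpG to 10% at the third and returns to 59.9% at the seventh, while PacBio and strand b stay above 59% on average throughout.

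Levels differed more between places of the repeat than between its copies. For words of the larger family with at least 5 copies, 863 words with a median of 7 copies, the middle CpG was compared over its copies. The SD between words was 16.2 points on PacBio and the SD between copies of a word 10.6 points. For strand a these values were 20.5 and 9.69 points, and for strand b 15.8 and 9.31 points. In the TSPY unit family, over 527 words with a median of 16 copies, the PacBio values were 23.1 and 9.78 points. The SD between copies includes the counting error of single CpGs, which was not taken out, so it overstates the variation between copies. Words overlap each other, so they are not independent.

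The strand gap of single CpGs was also compared between copies. Over 4022 words of the larger family with 2 copies in the same direction, the gap of the middle CpG correlated between copies with r = 0.903. Over 556 words with copies in opposite directions the correlation was r = -0.871, so the gap changed its sign with the direction of the copy. The PacBio levels of the same CpGs correlated positively in both cases, with r = 0.727 and r = 0.625. The gaps were not turned with the repeat, so copies from majority bins (mean gap 47.1 points) and opposite bins (mean -38.5 points) entered together. That split alone gives gap correlations of these signs, so they do not show whether each CpG repeated its own gap. In the TSPY unit family gaps were small and bins were not split in this way, so its values are not comparable. There the gap correlated with r = 0.458 over 1008 words in the same direction and r = -0.481 over 493 words in opposite directions.

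The longest blocks belonged to both families. The longest ran over 18930001-19050000 with 24 bins of the TSPY unit family, and its PacBio level was 61.6% ± 5.01 (SD over bins) with a mean gap of -0.0265 points. The second, 22195001-22310000 with 23 bins, was of the same family and had 66.7% ± 4.85 and a gap of 0.0748 points. The next blocks, 20235001-20330000 with 19 bins, 20420001-20510000 with 18 and 18635001-18710000 with 15, were majority blocks of the larger family. Their PacBio levels were 65.5% ± 3.05, 68.3% ± 4.58 and 67.5% ± 1.98, and their mean gaps were 51.9, 50.3 and 50.8 points. Within the first of these 3 the gaps of single bins ran from 47.7 to 54.6 points.

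All 20 genes with at least 50% of their length in dense bins were protein-coding and belonged to the TSPY unit family. The gene table gives them by locus symbol only. The study's annotation places a gene named TSPY3 at the same start and end for 15 of them, and the other 5 are named by symbol here. The 5 occupy the same unit as the 15 by their CpG spacing. Of 20 copies, 18 lay on the minus strand and 2 on the plus strand, and for the 15 named copies the annotated strand matched the orientation read from CpG spacing in every case. The 14 pairs of neighbouring copies less than 20 kb apart started 15573 to 15716 bp from each other, with a median of 15699 bp, the other neighbours were further apart, and the genes were 3426 to 3654 bp long. No gene lay to that extent in the larger family. Of its 295 bins, 6 overlapped a gene, in each case the ZNF280A pseudogene LOC132344452 at 22904515-23042746.

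The TSPY copies were methylated along the whole gene, and no 500 bp window from the gene start to 3500 bp averaged under 61.7% on PacBio. Gene bodies averaged 70.1% ± 3.53 on PacBio and 61.9% ± 2.03 on ONT (SD, n = 20 copies), from 62.0% to 75.1% and from 58.1% to 65.6%. The lowest PacBio values were 62.0% in LOC132344493 at 18969769-18973409, 64.1% in LOC132344492 at 18954070-18957710 and 65.8% in LOC132344501 at 19967206-19970852. The highest were 75.1% in LOC132344509 at 22232545-22236196, 74.2% in LOC132344510 at 22248246-22251884 and 73.5% in LOC132344508 at 22216844-22220493. The first pair of low copies stands next to each other in the longest block, and the 3 high copies lie in the second longest. On ONT the low copies read 60.1%, 61.3% and 61.3%, and the high copies 64.7%, 64.2% and 64.2%.

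The mean level varied along the unit, with a low window upstream of the gene start and a high one around it. The 1 kb around the annotated gene start, from 500 bp before to 500 bp after it, averaged 81.3% ± 3.32 on PacBio and 68.8% ± 2.01 on ONT (SD, n = 20 copies) over about 62 CpGs. No copy was below 74.9% there on PacBio. The window from 2000 to 1000 bp before the start averaged 36.7% ± 5.62 on PacBio and 36.8% ± 3.22 on ONT over a median of 18 CpGs. The start exceeded that window by 44.6 points ± 5.56 on PacBio, with 29.7 points as the smallest difference, and by 32.0 points ± 3.71 on ONT, with 20.8 points as the smallest. The start was higher than that window in all 20 copies on both platforms. The low window was not set before the profile was known, so these differences are a description of the profile. Values differed more beyond the gene, where the PacBio level ran from 14.6% to 88.9% between 5500 and 6000 bp after the start. Between 7500 and 8000 bp it ran from 14.7% to 71.9%. These windows can leave the unit, since LOC132344649 starts at 23048127 and its block of TSPY unit bins ends at 23050000. The extremes are therefore not shown to be differences between copies of the unit. The highest PacBio value of a 500 bp window upstream of this low window was 76.1% ± 5.70, between 6000 and 5500 bp before the start.

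**Figure D5:**
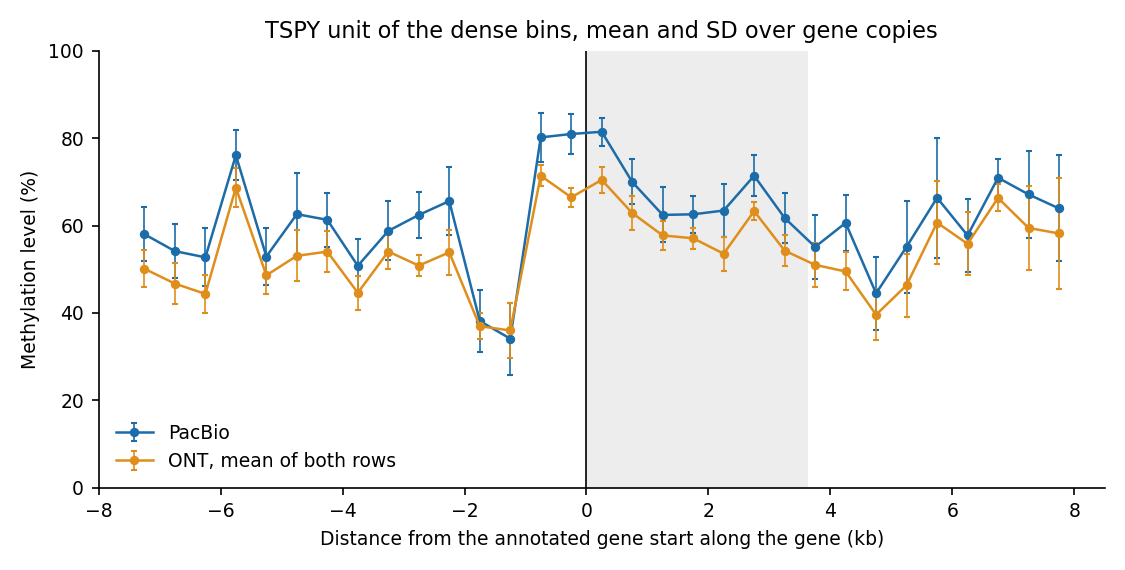
Mean and SD over the TSPY gene copies of the PacBio level and the ONT level (y axis, %) in windows of 500 bp against the distance from the annotated gene start in the direction of the gene (x axis, kb), with the shaded band of the median gene length, 3641 bp. In the windows between 2000 and 1000 bp before the start PacBio reads 38.2% and 34.1% and ONT 37.0% and 36.0%, and both rise to 80.2% on PacBio and 71.4% on ONT in the next window.

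The low bins were the only dense bins under 20% on PacBio, where 0.454% of all bins of the chromosome lay under that level. Each shared 0 words with either family, and 0 of their CpGs lay in a recurring word, so the name of repeat block does not describe them. At 23330627-23332865, a run of 94 consecutive CpGs stayed under 20%, with means of 3.29% on PacBio and 1.29% on ONT. It spans the end of LOC132344515 at 23332043, which is the start of that gene, as the study's annotation gives it the name TXLNG and the minus strand. The 20 CpGs to the left, inside the gene, averaged 77.9% and those to the right 59.5%. At a median depth of 53 reads with 1 modified, a CpG of this run had a 95% Wilson interval of 0.334% to 9.94%.

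The other low bin held the most CpGs of all dense bins, 255. Its longest run under 20%, at 23427470-23429042, comprised 162 CpGs in 1573 bp with means of 3.57% on PacBio and 1.57% on ONT. The plus and minus rows of this run read 1.46% and 1.69%. No gene of the table overlapped it, and the nearest gene end lay 95427 bp away. The 20 CpGs to its left averaged 42.8% and the 20 to its right 5.18%, so low values went on beyond the CpG that ended the run. The remaining unjoined bins, at 20800001-20805000 and 22645001-22650000, had PacBio levels of 70.0% and 72.6% and strand gaps of 28.4 and -37.0 points. In these, 41.1% and 71% of CpGs lay in recurring words, and the first shared 12 words with the larger family, at most 2 with any 1 bin.

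The set of 4 bins resembled the larger family in part. Its gaps were 9.66 points at 18910001-18915000, 21.0 points at 22315001-22320000, -37.3 points at 22990001-22995000 and -30.4 points at 23030001-23035000. In size these gaps lie between those typical of the families, and their signs varied.

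Compared with the rest of the stretch, the dense bins were higher on PacBio by 7.71 points, at 66.7% against 59.0% ± 12.5 (SD, n = 899). The size of this difference depended on the setting, with 16.4 points at a threshold of 75 CpGs and 4.49 points as a mean over CpGs. On ONT they were higher by 2.57 points, at 44.9% against 42.3% ± 8.74. This ONT difference was -8.43 points with the plus row alone and 13.6 points with the minus row alone. At a threshold of 150 CpGs it was 15.6 points. The other bins were a mixture, since 391 of them shared at least 3 words with the larger family. These had 66.1% ± 3.67 on PacBio and 41.3% ± 4.28 on ONT, close to the dense members of the family, while the 499 bins that shared fewer than 3 words with either family had 53.3% ± 14.1 and 42.9% ± 10.9. Strand gaps of at least 20 points occurred in 374 of the 391 bins and in 80 of the 499.

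The threshold of 100 CpGs cut through the larger family and not between kinds of sequence. The 120 dense bins with 100 to 102 CpGs had 66.8% ± 6.42 on PacBio and 42.0% ± 5.92 on ONT, and the 121 bins of the stretch with 97 to 99 CpGs had 66.5% ± 3.36 and 41.6% ± 4.36. At the upper end, 20 of the 21 bins with at least 150 CpGs held TSPY units and the other was the low bin of 255 CpGs.

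Elsewhere on the chromosome, bins of high CpG density differed in their strand gap. In the 504 centromere bins, with a median of 299 CpGs, the PacBio level was 80.6% ± 2.99 and the gap 17.6 points ± 4.56, and 158 bins had a minus row at least 20 points above the plus row, with none the other way. In the 80 bins with at least 100 CpGs beyond 24 Mb, the PacBio level was 68.6% ± 7.03, the gap averaged 0.13 points and no bin reached 20 points. The other 1579 bins outside the stretch with at least 100 CpGs had a mean gap of 2.42 points ± 6.74, and 65 of them reached 20 points. Of these, 54 lay on the far side of the centromere, all with the minus row higher, and 11 between the centromere and the stretch, 7 with the minus row and 4 with the plus row higher. Gaps of at least 20 points in both directions were thus also found outside the 295 bins of the larger family. They occurred between the centromere and the stretch, in the set of 4 bins and in the unjoined bins. Of the 499 other bins above, 28 had the minus row and 52 the plus row higher by that much. Some of these places hold words of the larger family. There were 555 copies between the centromere and the stretch, and the unjoined bin at 20800001-20805000 shared 12 words. Whether these gaps lie in related sequence was not tested. No word of either family was found in the centromere.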

How the data were processed

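For PacBio, the authors estimated methylation in HiFi reads with Primrose, aligned them with pbmm2 and summarised each CpG with aligned_bam_to_cpg_scores. The deposited PacBio file gives per CpG a level in percent, a read count and the estimated counts of reads with and without the mark. For ONT, the authors called bases and methylation with Dorado, aligned with Winnowmap and summarised with modbam2bed, which dropped calls of intermediate probability. The deposited ONT file gives a percent for each base of a CpG, with neither strand nor depth. The study states that missing values were set to 0 for PacBio, and whether this holds for ONT is not known.

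The files run in opposite directions, and all positions were converted to that of the assembly. All 975164 PacBio CpGs then had both ONT rows. The lower row of a CpG was assumed to be the plus strand. Only CpGs covered by 10 or more PacBio reads entered, averaged in 5 kb bins without weights. A strand gap was called at 20 points. Each platform is 1 library, so nothing was tested across samples, and intervals are at 95%. Genes came from the ARS-UCD2.0 table (335 on the Y), with family names and strands where the study's annotation had the same start and end. This gave names to 67 of 76 genes in the stretch, and 5 strands were taken from CpG spacing.

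The text names the 5 longest blocks, the 3 highest and 3 lowest bins, the 3 largest gaps in each direction, the most copied word and the 3 highest and 3 lowest genes. The bins with gaps against their orientation, the unjoined bins and the set of 4 bins were named after their values were seen. Members and lists were chosen with earlier results of these data known. Word matching and orientation were also run on simulated repeat copies, each kept whole and not cut into 5 kb bins. That run does not measure their accuracy in these data. Alternatives were coverage minimums of 4 and 20 reads, thresholds of 75 and 150 CpGs, shifted and 10 kb bins, a depth limit, levels from estimated counts, means over CpGs, single strand rows, zeros left out, words of 4 and 10 spacings and mean depth. Scripts ran in Python 3.11.15 with scipy 1.17.1, pandas 2.3.3 and numpy 2.4.6, and figures were drawn with matplotlib 3.10.9.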

Additional observations from a re-analysis of the deposited data

How the results depend on the processing

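No paired analysis was possible because each platform holds 1 library and the labels carry no replicate numbers. Of 101 recomputed values, 67 stayed within counting error or, for counts, within 1.5 times, among them all 9 of the PacBio level of the dense bins. ONT tolerances were borrowed from PacBio, since ONT depth is unknown. With at least 75 CpGs (875 bins) the ONT level was 43.6%, ONT minus PacBio -22.7 points, dense minus other bins 16.4 points on PacBio and 1.63 on ONT, the mean absolute gap 38.8 points, bins with the minus row higher 469, with the plus row higher 272, and the depth ratio 0.953. With at least 150 CpGs (21 bins) these were 58.5%, -8.59, 5.94, 15.6 and 2.24 points, and 0 bins in either direction. Bins of 10 kb (184 bins) gave 121 and 23 bins with gaps and 1.65 points for dense minus other bins on ONT. Means over CpGs gave 4.49 points for dense minus other bins on PacBio. The plus row alone gave an ONT level of 33.3%, -33.4 points from PacBio and a reversed -8.43 points from the other bins, and the minus row 56.5%, -10.2 and 13.6 points. Leaving out CpGs with a zero row gave 48.1%, -20.3 and 4.02 points and a mean absolute gap of 33.9 points, with 234 and 55 bins called as before. Words of 4 or 10 spacings put 96.7% or 81.5% of CpGs in recurring words, of which 35.4% or 16.9% occurred in both directions against 24.7%. Mean depth gave a ratio of 0.964 where the medians gave 1.

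Links of 1, 2, 5 or 10 shared words and the other word lengths, chosen after seeing the data, gave larger families of 245 to 297 bins, each with 1 bin whose gap went against its orientation, and 68 TSPY unit bins every time. Read depth limits single CpGs to intervals such as 50.5% to 78.4% on PacBio, and that of ONT is unknown.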

Other observations

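The repeats of the dense bins were not limited to them. Words of the larger family had 30304 copies in dense bins, 10845 in the other bins of the stretch, 555 between the centromere and the stretch, and 2 on the rest of the chromosome. Words of the TSPY unit family had 8912 copies in dense bins, 273 in the other bins of the stretch, 4350 between the centromere and the stretch and 9 beyond it. The TSPY unit therefore continued into the pericentromere of the long arm, while the larger family was found almost wholly in the stretch.

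The relation between orientation and strand gap was also seen in bins that the CpG threshold left out. Of the 391 other bins that shared words with the larger family, 212 had the majority and 179 the opposite orientation. A minus row at least 20 points above the plus row was found in 208 of the first and in none of the second, and the reverse in 166 of the second and in none of the first. Their mean gaps were 45.1 points ± 8.97 and -42.3 points ± 12.1 (SD over bins).

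The other ampliconic genes of the stretch lay wholly or mostly outside the dense bins and had lower mean gene-body levels, family by family, than the TSPY copies described above, 70.1% on PacBio. The ZNF280A pseudogene LOC132344452, at 68.4%, was an exception among single genes, since it lay within the range of those copies. It spans 138232 bp, of which 30.9% lies in dense bins, and its strand gap was -31.8 points. Its level is thus partly that of the repeats described above, and it is included in the ZNF280A mean below. The 13 TSPY1 genes averaged 50.3% ± 4.07, the 11 PRAME genes 56.3% ± 2.38, the 9 ZNF280A genes 41.5% ± 11.4 and the 13 ZNF280B genes 31.2% ± 8.16 (SD over genes). Of the ZNF280B genes, 7 held only 5 to 9 CpGs and averaged 25.4% ± 6.45, and the 6 with 78 to 81 CpGs averaged 38.0% ± 2.55. The 1 HSFY gene of the stretch read 49.9% over 6 CpGs. The first 4 families were also poorer in CpGs, with medians of 16.0, 15.0, 7.99 and 6.13 CpGs per kb against 33.1 in the TSPY copies of the dense bins. The families were compared as values and not tested.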
